A study of Mus musculus with 9 samples.

Results

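The genes of the Egf receptor ligands and receptors were examined for nearby Sox2 binding in mouse lung epithelial cells. The 10 genes were chosen by name for their place in the family, 7 ligands (Tgfa, Areg, Ereg, Epgn, Btc, Hbegf and Egf) and 3 receptors (Egfr, Erbb2 and Erbb3), out of 21887 protein-coding genes in all. The assay was ChIP-seq, in which DNA crosslinked to Sox2 is pulled down with an antibody and sequenced. The study addressed where Sox2 binds with or without Nkx2-1. Sox2 ChIP libraries were made from cells with ectopic Sox2 expression and Nkx2-1 deletion, from cells with ectopic Sox2 expression, and from wildtype cells, 1 library each. The strain was C57BL/6 and the age 8 weeks in every group. The labels name neither the driver of the ectopic Sox2 nor the way Nkx2-1 was removed, and do not say how many animals were pooled. A list of binding positions carries no expression value, so the labels alone give the epithelial identity, the extra Sox2 and the missing Nkx2-1.

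Ligands of the Egf family are made as membrane-anchored precursors that metalloproteases release, and they bind Egfr, a receptor tyrosine kinase that pairs with itself or with Erbb2 and Erbb3. Erbb2 has no known ligand of its own, and Erbb3, a receptor for neuregulins, has little kinase activity and relays the signal of its partner. In lung and squamous epithelium the pathway is known for driving proliferation and repair, and EGFR is a driver gene of human lung adenocarcinoma. Sox2 is a transcription factor that marks conducting airways and squamous epithelium, and Nkx2-1 sets lung identity.

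No genome sequence was used here, so the bound regions themselves are not printed, and no summit lay in the promoter stretches below. Those of the ligand genes Tgfa and Areg are shown because each had a summit upstream of its start, and that of Epgn because it is a neighbour of Areg with no summit within 50 kb. Each line gives the 250 bases before the start on the plus strand, from RefSeq (GRCm38.p6, the same build as mm10), at chr6:86194972-86195221 for Tgfa, chr5:91139349-91139598 for Areg and chr5:91027267-91027516 for Epgn. The Tgfa start is that of the promoter table and lies inside the gene span given further on, so most of its stretch does too. Capitals mark the cAMP response element, the palindrome of the factor Creb, which was looked for after the sequences were seen.
Tgfa: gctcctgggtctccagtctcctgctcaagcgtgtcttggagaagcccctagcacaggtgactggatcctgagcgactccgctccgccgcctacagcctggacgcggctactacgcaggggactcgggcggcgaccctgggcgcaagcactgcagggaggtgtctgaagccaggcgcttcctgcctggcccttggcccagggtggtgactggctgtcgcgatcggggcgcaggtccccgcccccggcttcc
Areg: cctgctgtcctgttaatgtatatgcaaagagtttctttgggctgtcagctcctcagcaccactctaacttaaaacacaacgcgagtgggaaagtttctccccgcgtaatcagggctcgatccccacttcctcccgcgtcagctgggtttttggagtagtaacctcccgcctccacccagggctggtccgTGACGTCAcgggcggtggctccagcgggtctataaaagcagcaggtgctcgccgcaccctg
Epgn: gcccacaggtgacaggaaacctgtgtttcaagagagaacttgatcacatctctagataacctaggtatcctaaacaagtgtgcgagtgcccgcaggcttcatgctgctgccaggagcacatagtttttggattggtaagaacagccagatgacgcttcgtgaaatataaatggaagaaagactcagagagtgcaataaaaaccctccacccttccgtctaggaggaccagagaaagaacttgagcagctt

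The Areg promoter held the element once, its first base 61 bases before the start. Of 32851 promoters of this length in the table, 1.55% held it. The table had a promoter for 7 of the 10 genes, 8 promoters in all, and none of the 8 held the Sox core ACAATG on either strand, which 10.7% of all promoters did. None held the Ap-1 motif TGANTCA, found in 6.75% of all. Only an Egf promoter, on the reverse strand, matched the Nkx2-1 core CACTTGA (2.68% of all), and only that of Erbb2 matched the Tead motif GGAATG (12.6% of all). These are matches of letters in a window and not sites.

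With ectopic Sox2 and Nkx2-1 deletion, a summit (the position of highest signal in a called region) lay inside or within 50 kb of 4 of the 10 genes: the ligand genes Tgfa, Areg and Ereg, and the receptor gene Erbb3. The other 6 genes had none. With ectopic Sox2 alone the count was 0 of 10, and in wildtype it was 0 of 10. The share over all protein-coding genes was 13.1% in the Nkx2-1 deletion list, 1.53% in the ectopic Sox2 list and 2.85% in the wildtype list, so 0 of 10 lies near the background in the shorter lists. The same 4 genes therefore had a summit in the first list and none in the ectopic Sox2 list, as 12.2% of all genes did, and none in either shorter list, as 11.0% did. The 4 genes rested on 5 separate summits on 3 chromosomes, because Areg and Ereg shared a summit. The gene list was chosen with results of these data known and each condition had 1 library, so the counts have no test and no replicate check.

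The lists differed in length and depth. There were 2589 summits with ectopic Sox2 and Nkx2-1 deletion, 229 with ectopic Sox2 alone and 552 in wildtype. The ChIP coverage implied by the listed values averaged 1.45 fragments per position with Nkx2-1 deletion, 0.764 with ectopic Sox2 alone and 0.964 in wildtype, which made the first library 1.90 times as deep as the second and 1.51 times as deep as the third. The part of depth in the counts of genes near a summit was not tested. Fragments at a summit were recovered from its listed fold and −log10 p, and their intervals are exact 95% Poisson intervals that cover counting error only.

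**Figure D1:**
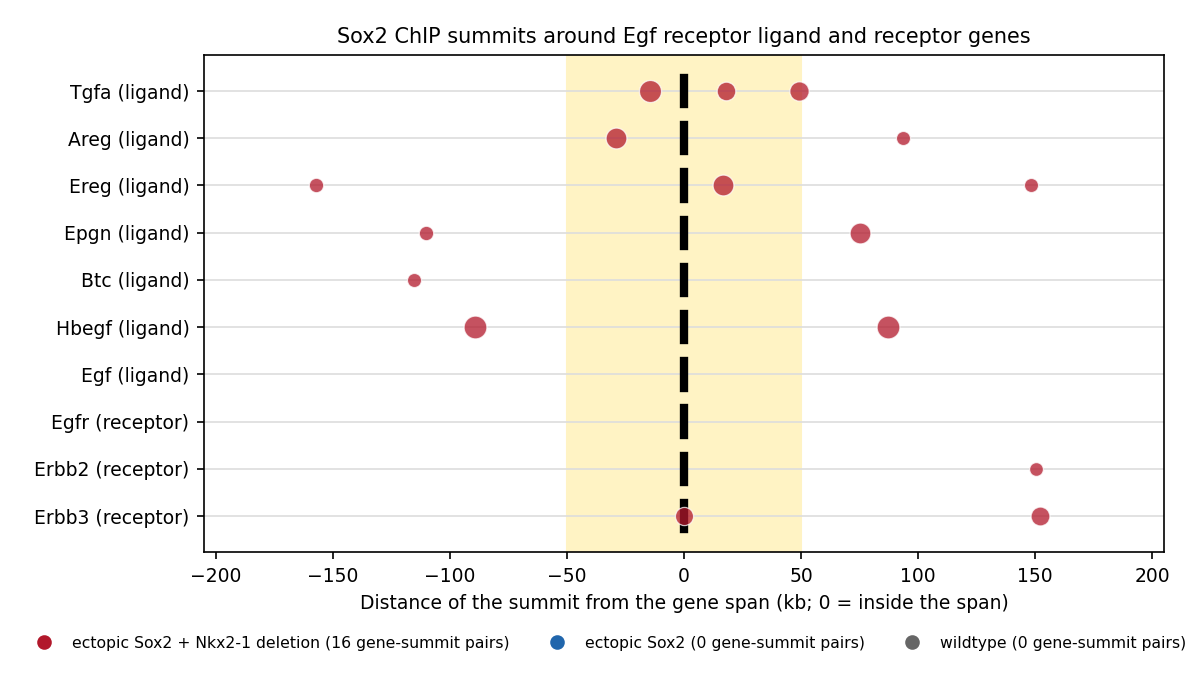
Distance in kb of each listed summit from the span of each gene, from 200 kb below to 200 kb above it; the dot area grows with the ChIP fragments and the shaded band is 50 kb. All 16 pairs of a gene and a summit came from the library with ectopic Sox2 and Nkx2-1 deletion, 6 of them in the band, and the ectopic Sox2 and wildtype lists had 0 within 200 kb.

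Tgfa, which encodes transforming growth factor alpha, had the most summits of the 10 genes, with 3 around its span at chromosome 6, 86195038 to 86275744 (mm10). At least 3 summits within 50 kb were found for 0.726% of all protein-coding genes in that list, and at least 2 for 2.76%. These shares are not matched for span, which was 80.7 kb for Tgfa against a median of 17.2 kb over all protein-coding genes. The part of span in the Tgfa count was not tested. None of the 3 lay inside the gene. The summit upstream, 14.3 kb below the span, was in the region 86180509 to 86180824 and held 56 fragments (interval 42.3 to 72.7), with a fold of 4.12 over the control background in the authors' list and a −log10 q of 5.07. The first summit beyond the gene, 18.1 kb above it at 86293669 to 86293921, held 40 fragments (28.6 to 54.5), with a fold of 8.97 and a −log10 q of 10.3. The second, 49.1 kb above it at 86324660 to 86324941, held 43 fragments (31.1 to 57.9), with a fold of 6.86 and a −log10 q of 8.49.

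The fragment intervals of the 3 Tgfa summits overlapped, and the control background differed. On the scale of fragments it was 11.8 at the upstream summit, against 2.36 and 4.25 at the others. The upstream summit therefore had the most fragments and the lowest fold, and ranked 1498 of 2589 by q, where the summit 18.1 kb above the gene ranked 423. The summit at 49.1 kb was the last inside the 50 kb window, and the genes Fam136a (40.7 kb) and Snrpg (46.7 kb) lay closer to it than Tgfa did. Around the other 2 Tgfa summits, Tgfa was the only protein-coding gene within 50 kb. With ectopic Sox2 the nearest summit to Tgfa lay 1284.2 kb away, and in wildtype 1274.1 kb away.

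Epgn, Ereg, Areg and Btc, which encode epigen, epiregulin, amphiregulin and betacellulin, lie side by side on chromosome 5, with no other protein-coding gene between 91027517 and 91402994. Within these 375.5 kb there were 2 summits with Nkx2-1 deletion, 0 with ectopic Sox2 alone and 0 in wildtype. The stronger lay in the 45.9 kb gap between Ereg and Areg, at 91110355 to 91110569, with 50 fragments (37.1 to 65.9), a fold of 5.54 and a −log10 q of 7.44. It was 16.8 kb from the Ereg span and 29.1 kb upstream of the Areg start, and gave both genes their count. It was also the nearest summit to Epgn, at 75.2 kb, outside the window.

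The second summit of the cluster lay between Areg and Btc at 91241798 to 91242065, 93.5 kb from Areg and 115.4 kb from Btc. It held 23 fragments (14.6 to 34.5), with a fold of 5.37 and a −log10 q of 3.23, and ranked 2145 of 2589 by q. Its fragment interval did not reach that of the summit between Ereg and Areg. No protein-coding gene lay within 50 kb of it. In the ectopic Sox2 and wildtype lists the nearest summit to all 4 genes was a region inside Shroom3, from 1494.9 kb (Btc) to 1862.7 kb (Epgn) away.

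**Figure D2:**
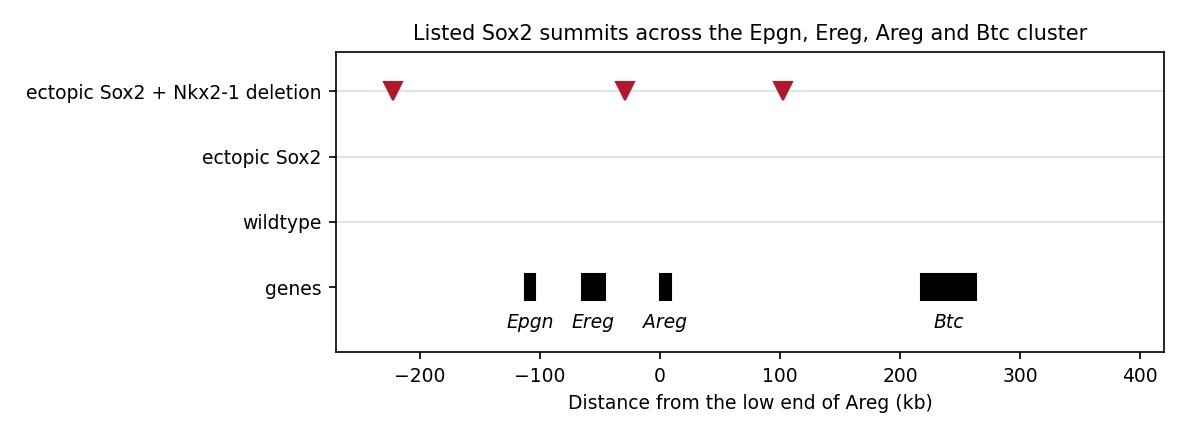
Position of the Epgn, Ereg, Areg and Btc spans (black boxes) and of listed summits (triangles) in kb from the low end of Areg, with a row for each library. The Nkx2-1 deletion row holds the 2 summits inside the cluster, 29.1 kb below and 102.3 kb above the low end of Areg, and another beyond Epgn, and the ectopic Sox2 and wildtype rows are empty.

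Hbegf, the heparin-binding Egf-like growth factor gene on chromosome 18, had a summit on either side of it, both outside the window. With Nkx2-1 deletion, the summit at 36602883 to 36603162 lay 87.2 kb above the gene, inside Ankhd1, with 60 fragments (45.8 to 77.2) and a −log10 q of 10.7. The summit at 36415512 to 36415828 lay 89.2 kb below it, inside Pfdn1, also with 60 fragments, and with a −log10 q of 8.62. These were more fragments than at any of the 5 summits counted within 50 kb, although the intervals overlap. With ectopic Sox2 and in wildtype the nearest summit lay 828.7 kb away in both.

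Egf, the founding ligand of the family, had no summit within 1 Mb in any list. The nearest was 1731.0 kb away with Nkx2-1 deletion, 6846.6 kb with ectopic Sox2 and 3036.8 kb in wildtype.

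Among the receptor genes, Erbb3 was the only one of the 10 genes with a summit inside its span, with Nkx2-1 deletion. The span is chromosome 10, 128567523 to 128589635, and the summit lay 747 bp from its low end, in the region 128568150 to 128568379. The high end lay 21.4 kb away. The promoter table lacked Erbb3, so which end is its start was not determined. The summit held 38 fragments (26.9 to 52.2), with a fold of 4.27, a −log10 q of 3.86 and a rank of 1974 of 2589 by q. It was the weakest of the 5 summits by q and the only one under a −log10 q of 5. Pa2g4, which encodes an Erbb3-binding protein and runs on the minus strand, began 2.34 kb from it, and Rpl41, Zc3h10 and Esyt1 also lay within 50 kb. Exons and introns were not told apart. A further Nkx2-1 deletion summit, inside Dgka, lay 152.2 kb from Erbb3, with 41 fragments (29.4 to 55.6). With ectopic Sox2 the nearest summit to Erbb3 was 27077.0 kb away, and in wildtype 1648.2 kb.

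Egfr, the receptor itself, had its nearest summit 853.9 kb away with Nkx2-1 deletion, 8957.7 kb with ectopic Sox2 and 1834.0 kb in wildtype. Erbb2 had its nearest Nkx2-1 deletion summit 150.5 kb away, 0.991 kb from Ormdl3, with 22 fragments (13.8 to 33.3). The nearest in the ectopic Sox2 and wildtype lists was 244.8 kb away, a few bases from Psmd3, and all 3 lists held that region. It had 54 fragments with Nkx2-1 deletion, 51 with ectopic Sox2 alone and 40 in wildtype, at chromosome 11, 98682410 to 98682646 in the first list. Scaled by depth, the ratio of the Nkx2-1 deletion library to the ectopic Sox2 library there was 0.557 (exact binomial interval 0.373 to 0.833). It was 0.896 (0.584 to 1.38) for Nkx2-1 deletion over wildtype, an interval that includes 1, and 1.61 (1.04 to 2.5) for ectopic Sox2 over wildtype. The region nearest to the receptor gene Erbb2 in those lists thus had fewer fragments for its depth with Nkx2-1 deletion than with ectopic Sox2 alone. These ratios compare libraries and not conditions.

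As a group, the 5 summits near the 10 genes lay inside the range of the Nkx2-1 deletion list. They held 38 to 56 fragments with a median of 43, where all summits of the list had a median of 38. Their folds ran from 4.12 to 8.97 with a median of 5.54, against a median of 5.73 over the list. By −log10 q they ran from 3.86 to 10.3 with a median of 7.44, against 5.97. None of the 5 overlapped a region of another list, where 12.7% of all summits in the list did. Inside a protein-coding gene lay 1 of the 5, where 47.9% of all summits did.

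**Figure D3:**
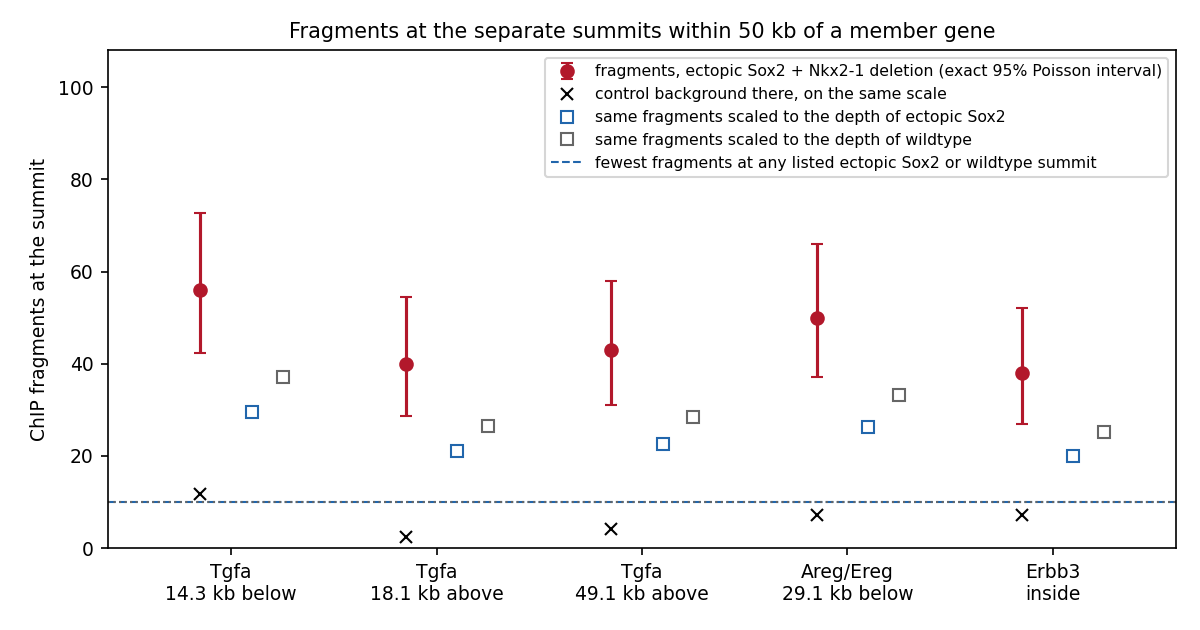
ChIP fragments at each of the 5 separate summits in the library with ectopic Sox2 and Nkx2-1 deletion (circles, exact 95% Poisson intervals), the control background on the same scale (crosses), and the same fragments scaled to the depth of the ectopic Sox2 and wildtype libraries (open squares). Every scaled value lies above the dashed line at 10 fragments, the fewest at any listed ectopic Sox2 or wildtype summit. That does not tell whether these summits would be listed at the lower depths, since listing also depends on the control background.

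The fragments at these summits, scaled by the recovered mean coverage, were set beside those of the shorter lists. That scaling does not make the libraries equal: at regions found in all 3 lists, the median fragment ratio was 1.32 times the depth ratio for Nkx2-1 deletion over ectopic Sox2, and 1.25 times for Nkx2-1 deletion over wildtype. Scaled to the depth of the ectopic Sox2 library, the 5 summits would correspond to between 19.99 fragments (Erbb3) and 29.5 (the upstream Tgfa summit), where listed ectopic Sox2 summits had from 10 to 65 with a median of 23. At the wildtype depth they would correspond to between 25.2 and 37.2 fragments, where listed wildtype summits had from 10 to 71 with a median of 24. At the shared Areg and Ereg summit the values were 26.3 fragments at the ectopic Sox2 depth, more than at 135 of its 229 summits, and 33.2 at the wildtype depth, more than at 434 of its 552. Listing also depends on the control background, and the 5 summits were picked because they were listed with Nkx2-1 deletion. The scaled values therefore do not tell whether they would be listed at the lower depths. The fragments at these positions in the ectopic Sox2 and wildtype libraries were not analysed here, so absence from those lists gives no value for them.

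The median distance to the nearest summit was shortest with Nkx2-1 deletion, both for the 10 genes and over all protein-coding genes. With Nkx2-1 deletion the median over the 10 genes was 81.2 kb, against 400.4 kb over all protein-coding genes. With ectopic Sox2 it was 1776.8 kb, against 4263.8 kb over the genes on chromosomes with a summit, and in wildtype 1698.8 kb, against 1852.6 kb. The ligand genes of chromosome 5 share nearest summits with each other, so the 10 distances are not independent. Within 10 kb, 1 of the 10 genes (Erbb3) had a summit with Nkx2-1 deletion, where 6.47% of all genes did. Within 100 kb it was 6 of the 10, where 20.7% did, and within 200 kb 8 of the 10, where 33.0% did. With ectopic Sox2 the count was 0 of 10 at each of these windows, where 0.736%, 2.45% and 4.3% of all genes had a summit. In wildtype it was also 0 of 10, where 1.37%, 4.66% and 8.27% did.

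Other rules were applied to the same lists. Giving each summit to its nearest protein-coding gene left the same 4 of the 10 genes with Nkx2-1 deletion, where 8.51% of all genes received a summit, and Areg then owed its place to the summit 93.5 kb away. By that rule the count was 0 of 10 with ectopic Sox2 (1.02% of all genes) and 0 of 10 in wildtype (2.19%). With a −log10 q of at least 2 the count was 4 with Nkx2-1 deletion (12.7% of all genes), 0 with ectopic Sox2 alone (1.51%) and 0 in wildtype (2.74%). With at least 5 it was 3 with Nkx2-1 deletion (8.83%), without Erbb3, and 0 with ectopic Sox2 (1.18%) and in wildtype (1.88%). Leaving out regions that all 3 lists held, it was 4 with Nkx2-1 deletion (12.9%), 0 with ectopic Sox2 alone (1.21%) and 0 in wildtype (2.55%).

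Gene length differed between the sets. The median span of the 10 genes was 23.7 kb, and that of all protein-coding genes 17.2 kb; the part of span in these shares was not tested.

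**Figure D4:**
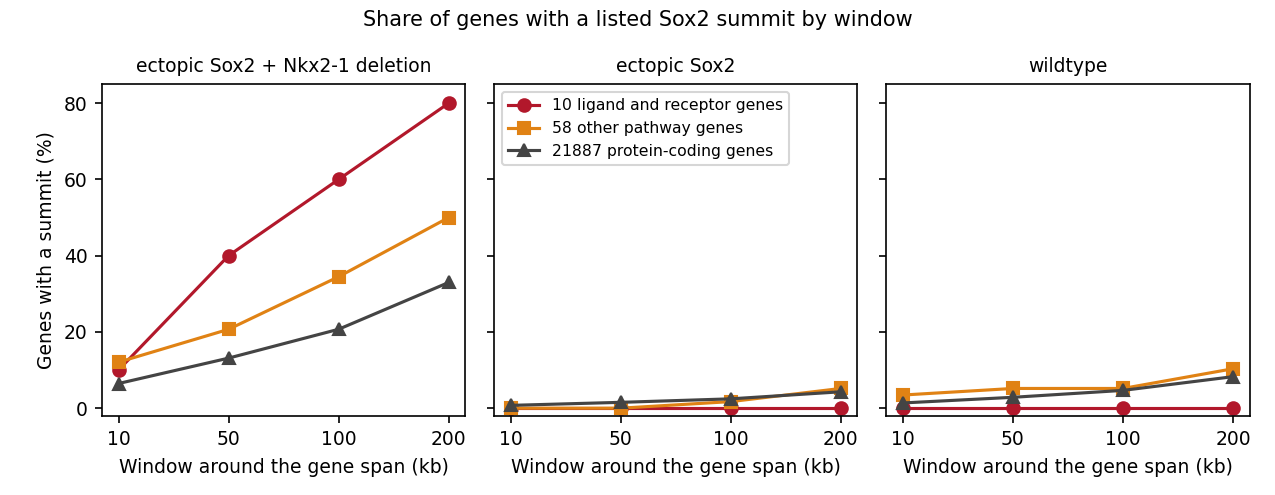
Percent of genes with a listed summit inside or within 10, 50, 100 or 200 kb of the span (evenly spaced on the axis), for the 10 ligand and receptor genes, 58 other pathway genes and all 21887 protein-coding genes, with a panel for each library. With Nkx2-1 deletion the 10 genes go from 10% at 10 kb to 80% at 200 kb, and with ectopic Sox2 and in wildtype they stay at 0.

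Other genes of the pathway were taken from a list of 58, grouped by role. With Nkx2-1 deletion 12 of the 58 (20.7%) had a summit within 50 kb, against 13.1% of all genes. With ectopic Sox2 the count was 0 of 58, against 1.53%, and in wildtype 3 of 58 (5.17%), against 2.85%. Of the 12, 8 were among the 17 genes for feedback inhibitors and receptor turnover, on 12 summits. The other classes had 1 gene each, except the 4 genes for ligand shedding, which had 0: Nrg1 of 5 other ligands and receptors, Grb2 of 15 adaptors and Ras-Mapk genes, Akt2 of 8 Pi3k and related genes, and Fosl1 of 9 immediate-early and Ets target genes. The 3 wildtype genes were also all of the feedback and receptor turnover class. Of its 17 genes, 47.06% had a summit with Nkx2-1 deletion and 17.65% in wildtype, so the class was not particular to the Nkx2-1 deletion list. The median span of the 58 genes was 49.7 kb, longer than that of all genes, and the part of span in the counts was not tested.

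The feedback genes with a summit under Nkx2-1 deletion act on the receptor or on the kinases below it. Errfi1, an inhibitor that binds the Egfr kinase, had a summit inside the gene, with 28 fragments (18.6 to 40.5), a fold of 7.39 and a −log10 q of 6.34. Lrig3, of a family of transmembrane proteins that act on Erbb receptors, had 2, of which the one 1.38 kb upstream of its start held 35 fragments (24.4 to 48.7) at chromosome 10, 125964698 to 125964967. Cblb, a ubiquitin ligase of activated receptors, had a summit 2.38 kb beyond the gene with 30 fragments, and Socs5, a suppressor of cytokine and Egf receptor signalling, had one 4.49 kb from it with 31. Dusp6 and Dusp5, phosphatases of Erk, had a summit 15.4 kb and 46.9 kb upstream of their starts, with 51 and 42 fragments. None of these summits overlapped a region of the wildtype or ectopic Sox2 list, but the genes whose summits did are left for the next paragraphs. Of the 12 summits of the class, both at Lrig1 and the one 47.5 kb above Eps8 overlapped wildtype regions. Over all summits in the Nkx2-1 deletion list, 12.75% overlapped a region of another list. The absence of overlap at the genes named here is therefore no result about the class.

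Lrig1, which promotes Egfr degradation, and Eps8, an Egfr substrate, were the only genes of the list with a summit in both the Nkx2-1 deletion and wildtype lists. Both Lrig1 regions lie inside the gene and were found in both lists. At chromosome 6, 94635408 to 94635639, there were 82 fragments with Nkx2-1 deletion and 22 in wildtype, a depth-scaled ratio of 2.47 (1.53 to 4.16). At 94675519 to 94675890 there were 62 with Nkx2-1 deletion and 19 in wildtype, a ratio of 2.17 (1.28 to 3.83). Both intervals lie above 1, so the Nkx2-1 deletion library had more fragments for its depth at Lrig1. The folds over control ran the other way, at 3.97 and 3.89 with Nkx2-1 deletion against 4.32 and 5.02 in wildtype, where the control background was 18.9 and 14.2 on the scale of fragments with Nkx2-1 deletion and 4.05 and 2.70 in wildtype. With the control background subtracted, the Lrig1 ratios were 2.33 and 1.95. Regions found in all 3 lists also ran above depth, with a median fragment ratio 1.25 times the depth ratio for Nkx2-1 deletion over wildtype. Scaled by those regions instead of depth, the Lrig1 ratios were 1.985 and 1.738, with no interval computed.

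Eps8 had 3 summits with Nkx2-1 deletion, of which the one 47.5 kb above the gene, nearer to Strap, was shared with wildtype. It had 48 fragments with Nkx2-1 deletion and 23 in wildtype, a ratio of 1.39 (0.826 to 2.39), an interval that includes 1. Cbl, the ubiquitin ligase related to Cblb, had a summit in wildtype only, inside the gene at chromosome 9, 44191112 to 44191482, with 33 fragments (22.7 to 46.3), a fold of 12.7 and a −log10 q of 19.2. It ranked 11 of 552 by q in its list and had no summit within 50 kb in the other 2 lists.

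Among the remaining pathway genes, the summit with the most fragments lay 21.7 kb upstream of Akt2, a kinase below Pi3k, with 116 fragments (95.9 to 139) and a −log10 q of 13.6 with Nkx2-1 deletion. Its control background was 23.6 on the scale of fragments, and it lies inside another annotated gene. Grb2, the adaptor between the receptor and Ras, had a summit 38.4 kb away with 42 fragments (30.3 to 56.8), a fold of 8.54 and a −log10 q of 10.2. Tmem94 lay closer to that summit, at 18.45 kb. Fosl1, an Ap-1 subunit, had one 34.5 kb away with 43 fragments, and 8 other protein-coding genes lay closer to it. Nrg1, the neuregulin that binds Erbb3, had one inside its long span with 40 fragments and a −log10 q of 2.37, the lowest of the pathway genes at their strongest summit.

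**Figure D5:**
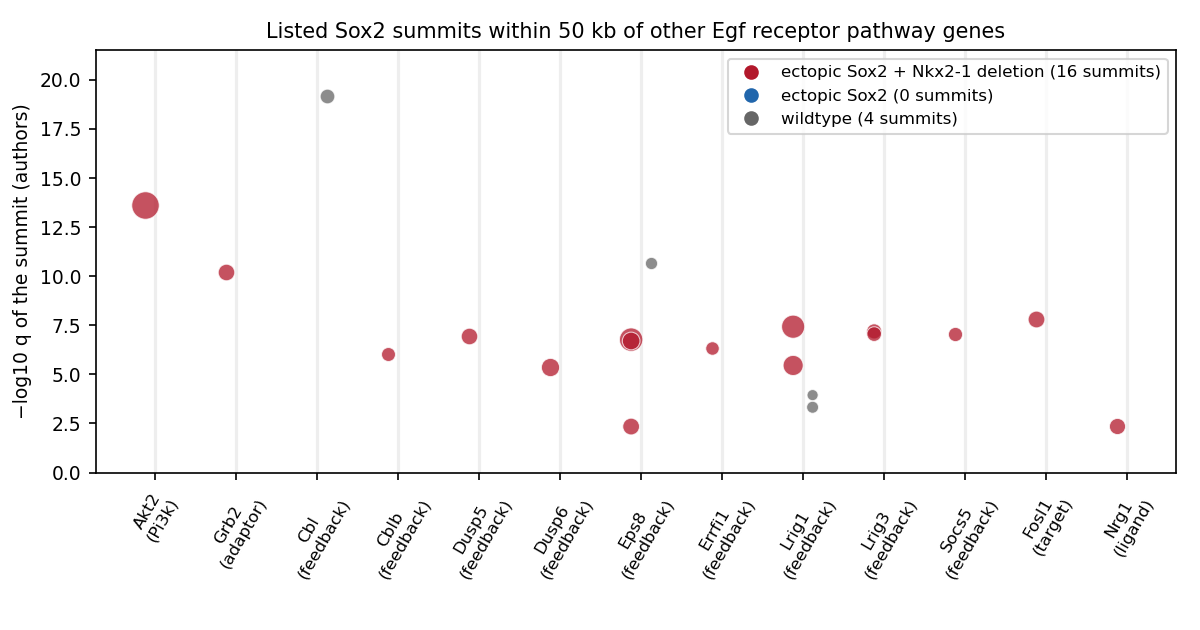
The authors' −log10 q of each listed summit within 50 kb of the other pathway genes, with dot area growing with the ChIP fragments, colour for the library and the gene's class in brackets. There are 16 summits with Nkx2-1 deletion, 0 with ectopic Sox2 alone and 4 in wildtype, and Cbl has the highest value at 19.2.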

How the data were processed

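Sox2 ChIP lists of the 3 conditions were used; the 6 input and IgG libraries were left aside. Tools named in the submitters' processing notes are Bowtie2 2.2.9, SAMtools 1.4, MACS2 2.1.1 and HOMER 4.8.3, with build mm10. The authors deposited a narrowPeak list per library, not pooled, with a score, a fold enrichment ratio over control, −log10 p and −log10 q per summit. Which control and threshold applied, and how duplicates were handled, is not given in the sources used here.

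Whole ChIP fragments and the control background were solved from fold (pseudocount 1) and −log10 p, within 0.02 of a whole number. The possible values of the control background assumed fragments of 200 bp. A unique value was found for 99.8% of Nkx2-1 deletion, 100% of ectopic Sox2 and 99.8% of wildtype summits. The method was tested on simulated lists made under the same assumptions, which checks the solving and not whether the authors' lists meet those assumptions. Depth is the recovered genome-wide background divided by the recovered scale (listed signal per fragment), not a read total. Ratios used exact conditional binomial 95% intervals and were chosen after the data were seen. Genes came from the RefSeq table of GRCm38.p6, which gives spans; a summit counted within 50 kb, and regions overlapped from 1 bp. Alternatives were windows of 10 and 100 kb, the nearest gene, −log10 q of at least 2 or 5, and leaving out regions in all 3 lists. Python 3.11.15 and SciPy 1.17.1 were used.

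The 10 genes and the pathway list were chosen with earlier results of these data known. All 10 were named, and so was every pathway gene with a summit in the ectopic Sox2 or wildtype list, the 10 with the highest −log10 q with Nkx2-1 deletion, and the other 2 with a summit. Planned motif searches at summits were not run, since no genome sequence was used here.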

Additional observations from a re-analysis of the deposited data

How the results depend on the processing

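Of 54 recomputed counts, 46 kept within 1.5 times the reported count and 8 moved, each with the window or the gene rule. Many of the 46 could not move. A count of 0 stays 0 with a narrower window, a −log10 q limit or shared regions left out. All ectopic Sox2 counts, and the wildtype counts for the 10 genes and their summits, were already 0. With Nkx2-1 deletion, no summit counted for the 10 genes overlapped a region of another list. Leaving out shared regions therefore could not change those counts. Within 10 kb, Nkx2-1 deletion gave 1 of the 10 genes on 1 summit and 7 of the 58 pathway genes, where 6.47% of all genes had a summit. Within 100 kb it gave 8 summits for the 10 genes and 20 pathway genes, where 20.7% of all genes had one, and ectopic Sox2 gave 1 pathway gene, Nrg1, where 2.45% did. By nearest gene, pathway counts were 14 of 58 with Nkx2-1 deletion (8.51% of all genes), 2 with ectopic Sox2 (1.02%) and 5 in wildtype (2.19%). With −log10 q of at least 5, the 10 genes kept Tgfa, Areg and Ereg and lost Erbb3. All 40 recomputed fragment ratios stayed within the intervals of the ratios they came from. These were 10 ratios, of which those at Lrig1, Eps8 and Erbb2 are given above. The others compare ectopic Sox2 with wildtype at the distant regions nearest to Areg, Hbegf, Egf and Egfr. Changing the overlap rule kept the same region pairs and so returned the same values. No region within 50 kb of the 10 genes was found in 2 lists, so the planned ratio there has no value. No paired analysis was possible because each condition has 1 library.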

Other observations

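Beyond 50 kb, the Nkx2-1 deletion list had a summit on the far side of Epgn, 110.1 kb from it at chromosome 5, 90917337 to 90917678, with 24 fragments (15.4 to 35.7) and a −log10 q of 4.11. It lay 11.5 kb from Cxcl2, which encodes a neutrophil chemokine, and Mthfd2l and Cxcl1 were also within 50 kb. Within 100 kb, the pathway genes with a summit with Nkx2-1 deletion came to include, among others, Erbb4, the neuregulin receptor outside the 10 genes, the shedding protease gene Adam17, the Ras exchange factor gene Sos2, the kinase gene Map2k2, Socs4, and the immediate-early genes Fos and Ier3. Near Dusp5 and Fosl1, both on chromosome 19, the control background was 4.72 on the scale of fragments at each summit, and at the Eps8 summit 5.97 kb below the gene it was 21.3 beside 84 ChIP fragments.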
